A study of Mus musculus with 46 samples.

Results

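The 4 libraries described here follow the NanogN70+Oct4 combination from D3 to D5 of reprogramming, with 2 replicates per day, and were chosen by their labels out of 46 samples in the series. The cells were OG2 mouse embryonic fibroblasts (MEF), prepared from E13.5 embryos that carry a GFP reporter driven by Oct4 regulatory sequence. NanogN70, which the study calls NanogBiD, is NANOG with a piece of SS18 joined to its N-terminus, and that piece binds BRG1, the ATPase of the BAF complex. It was delivered in pMXs retroviral vectors together with Oct4 (gene symbol Pou5f1), and the comparison cells received native Nanog (NanogWT) with Oct4 from the same kind of vectors. D0 is the day that followed 2 rounds of infection. Cells of both combinations were in iCD3 medium at D3 and at D5, and the switch to 2iL medium came after D5. The 31 time-course libraries, 2 MEF libraries and 1 mouse embryonic stem cell (OG2-mES) library share 1 table of FPKM, fragments scaled by gene length and by library total. Values were compared as log2(FPKM + 1), a scale that understates the change of low genes.

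Reprogramming asks fibroblasts to close the regulatory elements that keep their identity and to open those of the pluripotency network. OCT4 and NANOG are transcription factors of that network, and the BAF complex uses ATP to move nucleosomes, so that a factor tied to it can act on closed chromatin. The interval from D3 to D5 asks which genes came on or went off in the middle of the fusion path, before the change of medium. In bulk RNA, fewer cells that express a gene and less RNA per cell cannot be told apart.

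Promoter sequence of 6 genes is shown first, since genes that moved together are described below with the motifs their promoters hold. Nkx1-2 and Tdgf1 were among the genes that rose and hold no octamer in the window, Evx1 and Sfrp2 rose and hold 1 each, and Sele and Il33 fell. Each run gives the 250 bases upstream of a start site that RefSeq lists on GRCm38.p6, 5′ to 3′ on the strand of the gene, and capitals mark matches to 1 of the motifs searched. The windows are chr7:132599638-132599887 (minus strand) for Nkx1-2, chr9:110946159-110946408 (minus) for Tdgf1, chr6:52313248-52313497 (plus) for Evx1, chr3:83766071-83766320 (plus) for Sfrp2, chr1:164047984-164048233 (plus) for Sele and chr19:29945540-29945789 (plus) for Il33.
Nkx1-2: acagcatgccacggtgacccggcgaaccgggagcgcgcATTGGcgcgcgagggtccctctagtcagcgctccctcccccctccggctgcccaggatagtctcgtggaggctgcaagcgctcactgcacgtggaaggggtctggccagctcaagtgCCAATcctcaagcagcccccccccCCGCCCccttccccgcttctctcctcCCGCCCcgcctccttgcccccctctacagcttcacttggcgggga
Tdgf1: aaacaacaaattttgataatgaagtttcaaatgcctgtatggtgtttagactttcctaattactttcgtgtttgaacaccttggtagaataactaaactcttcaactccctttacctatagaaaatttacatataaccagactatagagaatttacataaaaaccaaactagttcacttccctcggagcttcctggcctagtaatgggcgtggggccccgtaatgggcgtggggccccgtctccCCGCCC
Evx1: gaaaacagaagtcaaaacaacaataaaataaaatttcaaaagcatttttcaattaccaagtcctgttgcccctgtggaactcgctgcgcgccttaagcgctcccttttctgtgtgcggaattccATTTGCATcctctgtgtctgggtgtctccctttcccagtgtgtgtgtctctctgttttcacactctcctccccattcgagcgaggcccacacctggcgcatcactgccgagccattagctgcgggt
Sfrp2: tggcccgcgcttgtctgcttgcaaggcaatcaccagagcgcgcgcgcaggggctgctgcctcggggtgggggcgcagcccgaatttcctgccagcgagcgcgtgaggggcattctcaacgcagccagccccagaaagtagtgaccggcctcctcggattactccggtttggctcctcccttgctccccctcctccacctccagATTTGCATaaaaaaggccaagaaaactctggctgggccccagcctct
Sele: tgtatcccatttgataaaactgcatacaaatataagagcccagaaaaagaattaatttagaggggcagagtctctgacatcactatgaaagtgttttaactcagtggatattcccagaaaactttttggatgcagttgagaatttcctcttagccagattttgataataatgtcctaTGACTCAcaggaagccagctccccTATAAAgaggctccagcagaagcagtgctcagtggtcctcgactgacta
Il33: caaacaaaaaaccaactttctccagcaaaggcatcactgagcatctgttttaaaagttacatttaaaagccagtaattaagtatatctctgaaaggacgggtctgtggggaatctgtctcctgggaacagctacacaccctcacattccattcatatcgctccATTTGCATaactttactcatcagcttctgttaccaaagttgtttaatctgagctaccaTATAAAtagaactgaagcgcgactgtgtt
The capitals in Nkx1-2 are a CCAAT box on each strand and 2 GC boxes. In Tdgf1 they are a GC box whose first base lies at -6 from the start site. In Evx1 and Sfrp2 they are a POU octamer, the letters ATGCAAAT read on the other strand as ATTTGCAT, at -126 and -47. Sele holds an AP-1 site (TGANTCA) at -73 and a TATA box at -49, and Il33 holds an octamer at -87 and a TATA box at -29. RefSeq lists 2 start sites for Il33, and the window shown was chosen because it holds the octamer.

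The factors themselves did not pass the test between D3 and D5. Nanog stood at 1480 and 1590 FPKM at D3 and at 1225 and 1122 at D5 (log2 difference -0.39, limma adjusted p = 0.503), against 0.235 and 0.229 in MEF and 365 in mES. Pou5f1 stood at 6969 and 4571 FPKM and then at 5377 and 5428 (log2 difference -0.06, adjusted p = 0.996), and its sign turned under other scalings. Ss18, a piece of which the vector carries, stood at 136 and 117 FPKM and then at 117 and 118, while the native combination held 35.4 and 35.6 at D3 and 29.4 and 33.6 at D5. The Ss18 level thus matched the label in all 4 fusion libraries. FPKM do not part vector transcripts from those of the endogenous genes.

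The 4 libraries were of like depth, but the D3 replicates stood further apart than those of D5. Low FPKM values step by 1 read, which gave depths relative to D3 replicate 1 of 1.063 for D3 replicate 2, 1.001 and 1.059 for D5, and 0.875 to 1.048 for the native libraries of the same days. Across genes the D3 replicates correlated at r = 0.9667, the second lowest of 15 replicate pairs (0.9607 to 0.9902), and the D5 replicates at 0.9902, the highest. At D3, 905 of 16842 tested genes were at least 2-fold apart between replicates, against 156 at D5. The difference between the D3 replicates followed transcript GC content across 15955 genes (Spearman 0.476), and that between the D5 replicates did so at 0.030. The change to D5 had a Spearman value with GC of -0.018 counted from D3 replicate 1 and of 0.504 counted from replicate 2. The part of this difference in the results was not tested, and the main counts of genes called are also given below with single libraries left out.

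Most of the genes called between D3 and D5 of the fusion combination rose. Of 16842 tested genes, 226 passed a limma adjusted p under 0.05 and a 2-fold change, which is 1.34% (identical FPKM rows leave 225 distinct genes). Of these, 202 rose (1.2%) and 24 fell (0.143%). The groups did not overlap, with both D5 libraries higher, in 24.5% of tested genes and with both lower in 13.4%. The median level of the 202 risers went from 1.58 to 6.5 FPKM, and 64 of them went from under 1 FPKM in both D3 libraries to at least 1 in both D5 libraries. Such a gene can pass the filter for testing (1 FPKM in 2 libraries) through its D5 pair alone, so 64 only describes the called genes. The D3 mean was under 1 FPKM in 72 of the 202, and in 3660 of the 16842 tested genes. The 24 fallers went from a median of 10.6 to 3.51 FPKM, and 2 of them crossed 1 FPKM downward. Without D3 replicate 1 the counts were 289 and 81, and without D3 replicate 2 they were 129 and 9. Without D5 replicate 2 they were 111 and 6. A fit to the 4 libraries alone, with 2 residual degrees of freedom, called no gene, while 1642 had an unadjusted p under 0.05.

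Nkx1-2, a homeobox gene of the posterior growth zone of the embryo (chromosome 7, 132596239 to 132599637), stood at 0.130 and 0 FPKM at D3 and at 4.39 and 5.68 at D5. The log2 difference was 2.50 (SE 0.23, limma adjusted p = 4.26e-06). The D5 level was close to the 5.83 FPKM of mES, and MEF was listed at 0. Its promoter, shown above, is 69.6% GC. Sp5, a zinc finger factor and a direct target of Wnt signalling, stood at 9.28 and 1.75 FPKM and then at 25.0 and 22.8 (log2 difference 2.23, SE 0.55, adjusted p = 0.0317). Sp5 stayed called in 9 of 17 alternatives. Its D3 libraries differed widely, and the call was lost without D3 replicate 2 and without either D5 library.

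The next genes encode secreted or membrane proteins. Clu, a secreted chaperone (chromosome 14, 65968483 to 65981548), went from 149 and 104 FPKM to 818 and 796 (log2 difference 2.69, SE 0.24, limma adjusted p = 3.09e-06). MEF held 7.50 and 1.52 FPKM of Clu and mES 5.44, so the D5 level lay far above both references. Penk, the precursor of enkephalins (chromosome 4, 4133536 to 4138815), went from 51.4 and 20.6 FPKM to 173 and 217 (log2 difference 2.53, SE 0.30, adjusted p = 5.27e-05), and native cells held 107 and 134 at D5. Pcsk1n, an inhibitor of a prohormone convertase, went from 6.98 and 1.97 FPKM to 31.2 and 27.4 (log2 difference 2.64, SE 0.305, adjusted p = 3.64e-05). It overlaps Eras, and its 2 D3 values lay even further apart on the log2 scale than those of Penk. Grik3, a kainate receptor subunit (chromosome 4, 125490259 to 125714173), went from 1.40 and 0.858 FPKM to 10.7 and 12.8 (log2 difference 2.59, SE 0.18, adjusted p = 1.19e-07).

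The remaining risers named by the rule were enzymes, transporters and surface or matrix proteins. Qprt, an enzyme of NAD synthesis from quinolinate, went from 14.9 and 9.15 to 66.1 and 65.0 FPKM (log2 difference 2.39, limma adjusted p = 2.54e-05). Aqp8, a water channel, went from 7.54 and 5.18 to 37.7 and 32.0 FPKM (log2 difference 2.30, adjusted p = 7.42e-06). Col23a1, a membrane collagen, went from 2.61 and 1.00 to 12.7 and 13.2 FPKM (log2 difference 2.38, adjusted p = 1.29e-05). In all 3 the D5 pair lay well above the D3 pair, and each stayed called when any single fusion library was left out. Ifitm1, an interferon-induced membrane protein also known from early germ cells, went from 2.38 and 0.678 to 10.6 and 11.2 FPKM (log2 difference 2.32, adjusted p = 0.0072). Slc16a3, a lactate exporter, went from 5.79 and 0.915 to 9.59 and 24.6 FPKM (log2 difference 2.19, adjusted p = 0.0244). Both lost their call without D3 replicate 2 or D5 replicate 2, Ifitm1 also without D5 replicate 1, and the replicates of Slc16a3 were uneven at both days.

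**Figure D1:**
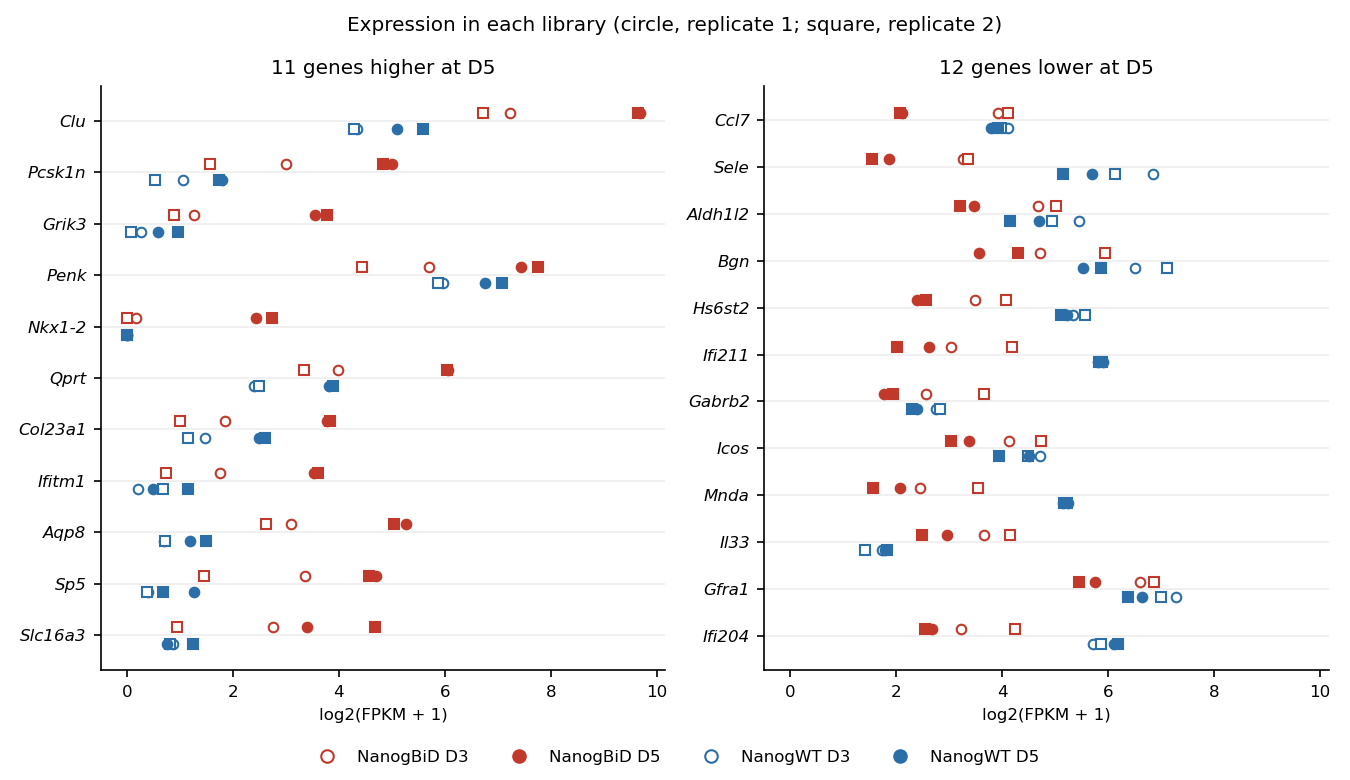
Level (x axis, log2(FPKM + 1)) of 11 risers and 12 fallers named by the rule, with 1 point per library, NanogN70+Oct4 (NanogBiD, red) and Nanog+Oct4 (NanogWT, blue) at D3 (open) and D5 (filled). The D5 points of Nkx1-2 (4.39 and 5.68 FPKM) and Grik3 (10.7 and 12.8) lie far above their D3 points, while Sp5 and Slc16a3 show D3 replicates that are wide apart.

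The fallers were fewer and their changes smaller. Ccl7, a chemokine that draws monocytes (chromosome 11, 82045712 to 82047525), had the largest fall among them, from 14.2 and 16.2 FPKM to 3.32 and 3.21 (log2 difference -1.92, SE 0.34, limma adjusted p = 0.00249). It was the faller named by the rule that kept its call when any single fusion library was left out. Sele, the adhesion receptor E-selectin (chromosome 1, 164039614 to 164058487), went from 8.58 and 9.23 to 2.65 and 1.91 FPKM (log2 difference -1.60, SE 0.335, adjusted p = 0.00954). Il33, an alarmin cytokine (chromosome 19, 29925113 to 29960718), went from 11.7 and 16.7 to 6.82 and 4.59 FPKM (log2 difference -1.18, SE 0.22, adjusted p = 0.0033). The D3 and D5 values of all 3 did not overlap, and the calls of Sele and Il33 were lost without D3 replicate 2 or D5 replicate 2.

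Aldh1l2, a mitochondrial folate enzyme, went from 24.6 and 31.2 to 10.1 and 8.23 FPKM (log2 difference -1.51, limma adjusted p = 0.007). Gfra1, the GDNF receptor, was the most abundant faller named, from 96.4 and 116 to 53.1 and 42.7 FPKM (log2 difference -1.13, adjusted p = 0.0134). Bgn, a small matrix proteoglycan that MEF held at 1359 and 1345 FPKM, went from 25.3 and 60.6 to 10.8 and 18.7 (log2 difference -1.40, adjusted p = 0.0316). Its call was lost in 7 of 17 alternatives, among them TPM, quantile normalization and no filter on low values. Its large loss came earlier, since the mean was 526 FPKM at D0 and 43.0 at D3. Hs6st2, a heparan sulfate sulfotransferase, Gabrb2, a GABA receptor subunit, and Icos, a costimulatory receptor, had log2 differences of -1.30, -1.26 and -1.22. Ifi204 (log2 difference -1.13) and the locus listed both as Ifi211 (-1.29) and as Mnda (-1.19) belong to the interferon-inducible HIN-200 genes, and the last pair shares 1 position on chromosome 1, so it counts as 1 item. Ifi211 and Mnda stayed called in only 4 of 17 alternatives, and Ifi204 in 11. These 3 rest on D3 replicate 2, where Ifi204 stood at 17.9 FPKM against 8.41 in replicate 1, and none was called without it.

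Some genes that mark embryonic stem cells rose, to a summed level far below that of mES. Of 12 such markers tested, 5 rose (41.7%, against 1.2% of tested genes) and 0 fell, and the median log2 difference was 0.97 against 0.05 over all tested genes. Their summed level went from 18.2 and 14.2 FPKM at D3 to 53 and 60.2 at D5, against 1.5 and 0.365 in MEF and 3926 in mES. Without D3 replicate 1 the count was 5 and the median 1.00, without D3 replicate 2 they were 2 and 0.95, and without D5 replicate 2 they were 2 and 0.87. Tfcp2l1, Tdgf1 and Sall4 had also risen from D1 to D3, by log2 differences of 2.83, 2.63 and 1.25. Dppa3 was listed at 0 in all 4 libraries, and Fgf4 and Dppa5a stayed under 1 FPKM.

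Sall4, a zinc finger factor of the OCT4 and NANOG network (chromosome 2, 168748332 to 168767201), stood at 1.49 and 1.27 FPKM at D3 and at 5.59 and 6.88 at D5 (log2 difference 1.60, SE 0.31, limma adjusted p = 0.0055). Tdgf1, the NODAL coreceptor CRIPTO, went from 7.42 and 4.22 to 23 and 21.3 FPKM (log2 difference 1.80, SE 0.34, adjusted p = 0.00393), and mES held 408. Lin28a, which blocks maturation of let-7 microRNAs, went from 0.0746 and 0.0468 to 2.78 and 2.86 FPKM (log2 difference 1.85, SE 0.29, adjusted p = 0.000724). Both D5 values of each gene lay above both D3 values, and of the 3 only Lin28a kept its call without D3 replicate 2. L1td1, an RNA-binding protein of stem cells, went from 0.147 and 0.0990 to 2.42 and 2.66 FPKM (log2 difference 1.66, adjusted p = 0.0105). Tfcp2l1, a factor of naive pluripotency, went from 7.17 and 7.74 to 14.7 and 21.7 FPKM (log2 difference 1.16, adjusted p = 0.0013).

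Among 20 naive pluripotency factors 3 rose (15%, against 1.2% of tested genes) and none fell, with a median log2 difference of 0.47. The 3 were Tfcp2l1, Gbx2 and Sall4. Gbx2, a homeobox factor that sustains self-renewal, went from 0.0291 and 0 to 3.06 and 4.35 FPKM (log2 difference 2.199, limma adjusted p = 0.0103). Other core factors did not pass. Esrrb, an orphan nuclear receptor, stood at 0.0965 and 0.136 FPKM at D3 and at 1.07 and 1.46 at D5 (log2 difference 1.02, adjusted p = 0.0641), with 163 in mES. Klf4 stood at 6.15 and 3.85 and then at 12.5 and 9.85 FPKM (log2 difference 1.04, adjusted p = 0.166), and Sox2 at 1.56 and 0.449 and then at 1.81 and 1.45 (log2 difference 0.45, adjusted p = 0.799), with 248 in mES. Prdm14 was listed at 0 in all 4. Of 25 pluripotency effectors and markers 6 rose (24%) and 0 fell, with a median of 0.21. They were Tdgf1, Lin28a, L1td1, Gdf3, the glucose transporter Slc2a3 and the uridine phosphorylase Upp1. Slc2a3 went from 24.8 and 18.1 to 68.5 and 66.9 FPKM (log2 difference 1.63, adjusted p = 0.00221). Without D3 replicate 2 the calls in these lists were 1 and 1, and without D5 replicate 2 they were 0 and 3, so that Tfcp2l1, Gbx2 and Sall4 all lost their calls there.

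Wnt signalling steadies beta-catenin, which then acts with TCF/LEF factors on its targets. Of 38 Wnt ligands, inhibitors and targets tested, 6 rose (15.8%) and 0 fell, 35 had a positive log2 difference (9860 of 16842 over all tested genes), and the median was 0.42. Among the ligands, Wnt6 went from 0.161 and 0.151 to 1.74 and 2.81 FPKM (log2 difference 1.48, limma adjusted p = 0.00129) and Wnt3 from 0.327 and 0.188 to 1.18 and 2.28 (log2 difference 1.09, adjusted p = 0.00302). Lef1, which carries the signal to DNA with beta-catenin, went from 0.397 and 0.746 to 2.16 and 3.22 FPKM (log2 difference 1.22, adjusted p = 0.0173). All of these started below 1 FPKM and their D3 and D5 values did not overlap.

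Of the Wnt targets, Cdx1, a homeobox gene of the posterior embryo, went from 0.283 and 0.0666 to 3.04 and 4.34 FPKM (log2 difference 1.99, SE 0.30, limma adjusted p = 0.000488), and Sp5 is given above. Sfrp2, a secreted Wnt inhibitor whose promoter holds an octamer, went from 1.31 and 1.56 to 3.87 and 4.68 FPKM (log2 difference 1.11, adjusted p = 0.0369). Sfrp2 stayed called in 8 of 17 alternatives. T, the mesoderm factor brachyury, was listed at 0 in both D3 libraries and stood at 0.679 and 0.813 FPKM at D5 (log2 difference 0.80, adjusted p = 0.000439), below the 2-fold limit. The Wnt count was 6 without D3 replicate 1 and 2 without replicate 2, with medians of 0.57 and 0.37, 2 without D5 replicate 2, and 3 after quantile normalization.

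**Figure D2:**
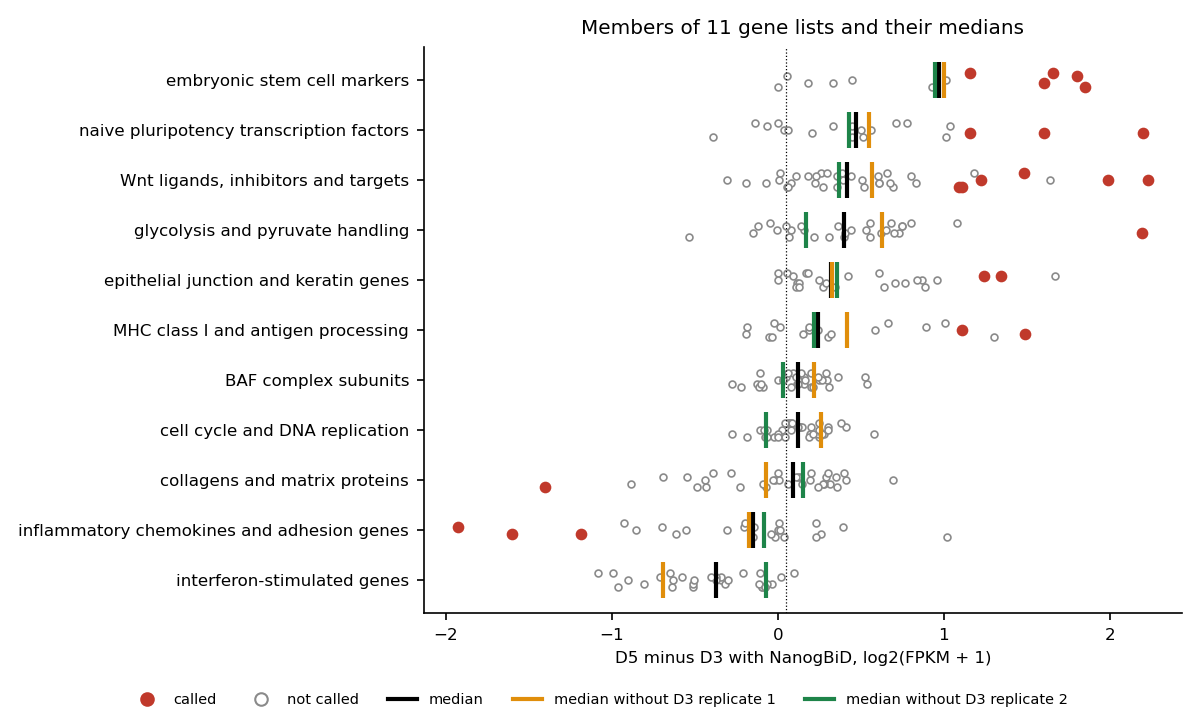
Log2 differences (D5 minus D3, NanogN70+Oct4) of the tested members of selected gene lists, with 1 point per gene, called genes filled, and bars for the median of each list over all libraries and without either D3 library; the dotted line is the median of all tested genes (0.05). The embryonic stem cell markers have the highest median (0.97), and 29 of 31 interferon-stimulated genes lie below 0 with none called.

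Interferon-stimulated genes had mostly negative differences and no call. Of 31 tested, 0 passed in either direction by limma, 29 had a negative log2 difference (6661 of 16842 over all tested genes), 9 were lower at an unadjusted p under 0.05, and the median was -0.37. Ifit1, an RNA sensor of the interferon response, stood at 13.2 and 40.8 FPKM at D3 and at 12.2 and 9.07 at D5 (log2 difference -1.08, limma adjusted p = 0.236). Only D3 replicate 2 was apart for this gene. Without D3 replicate 1 the median was -0.69 with 5 genes lower, and without D3 replicate 2 it was -0.07 with 0. The inflammatory list had 3 fallers of 24 (Ccl7, Sele and Il33), a median of -0.15, and 4 or 1 fallers without D3 replicate 1 or 2 and 1 without D5 replicate 2. The 3 fallers are 12.5% of that list, against 0.143% of tested genes. Ptgs2, the inducible cyclooxygenase, stood at 2.62 and 4.18 and then at 1.35 and 1.22 FPKM (log2 difference -0.925, adjusted p = 0.0132), below the 2-fold limit.

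A few MHC class I genes rose. Of 19 tested, 2 rose (10.5%, against 1.2% of tested genes) and 0 fell (against 0.143%), with a median of 0.24. H2-D1, which presents peptides to T cells, went from 51.5 and 49.2 to 104 and 116 FPKM (log2 difference 1.11, limma adjusted p = 0.00516), and H2-Q7 from 0.686 and 0.340 to 2.63 and 3.88 (log2 difference 1.49, adjusted p = 0.000377). H2-K1 stood at 50.5 and 57.6 and then at 96.0 and 107 FPKM (log2 difference 0.90, adjusted p = 0.0039), below the 2-fold limit. These genes have near-identical relatives, so reads may be split between them. The count was 3 without D3 replicate 1 and 1 without D3 replicate 2 or D5 replicate 2, since H2-D1 lost its call.

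Glycolysis genes had a median of 0.40 over 29, of which Slc16a3 alone was called (3.45%, against 1.2% of tested genes). The count was 4 without D3 replicate 1 and 0 without replicate 2, with medians of 0.63 and 0.17, and it was 0 without D5 replicate 2. Of 26 epithelial junction and keratin genes 24 had a positive difference (9860 of 16842 over all tested genes), with a median of 0.32. Of the 26, 2 rose (7.69%, against 1.2% of tested genes). They were Epcam, an adhesion molecule of epithelia and stem cells (1.68 and 0.792 to 5.02 and 4.17 FPKM, log2 difference 1.35, limma adjusted p = 0.0367), and Pkp3, a desmosomal plakophilin (log2 difference 1.24). Cdh1, the epithelial cadherin, stood at 0.0280 and 0 and then at 0.182 and 0.409 FPKM (adjusted p = 0.768). Neither Epcam nor Pkp3 was called without D3 replicate 2 or without D5 replicate 2.

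Few fibroblast and matrix genes were called in this interval. Of 12 fibroblast markers 0 passed by limma (1 higher and 3 lower at an unadjusted p under 0.05), with a median of 0.25, while their summed level was 5361 and 5159 FPKM at D3 and 4319 and 3861 at D5, against 9563 and 9571 in MEF. Vim, an intermediate filament protein, made up most of that sum, and Col1a1 stood at 113 and 133 and then at 115 and 130 FPKM, against 3700 and 3344 in MEF. Of 34 collagens and matrix proteins 1 fell (Bgn, 2.94%, against 0.143% of tested genes). Of 25 matrix proteases and inhibitors 1 rose (Adamts2, 4%, against 1.2%). Neither was called without D3 replicate 2. Without D3 replicate 1, 1 fibroblast marker, 2 collagens or matrix proteins and 1 mesenchymal factor were called lower. Smooth muscle, AP-1 and TGF-beta lists of 16, 12 and 23 genes had 0 calls by limma, with medians of 0.18, 0.18 and -0.03, and 0, 0 and 5 genes at an unadjusted p under 0.05. Of 10 macrophage markers 0 passed (1 at an unadjusted p under 0.05, median -0.04), with summed levels of 5.44 to 12.8 FPKM over the 4 libraries, and of 6 endothelial markers 0 passed (1 unadjusted, median 0.35). Of 23 mesenchymal factors only Meox1 rose, from 0 in both D3 libraries to 1.51 and 1.11 FPKM (log2 difference 1.20, limma adjusted p = 8.26e-05).

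The other lists had few or no calls. The 33 BAF subunits, the complex to which the fusion is tied, had 0 calls by limma, 2 genes at an unadjusted p under 0.05 and a median of 0.12, and the 37 cell cycle genes had 0, 0 and 0.12. The FGF, LIF, p53, cholesterol and trophoblast lists also had 0 calls, with medians of 0.04, 0.10, -0.15, -0.13 and 0.04 and 6, 3, 5, 2 and 2 genes at an unadjusted p under 0.05. Over all tested genes 1.2% rose and 0.143% fell. Of 26 BMP genes 1 rose and 1 fell (3.85% each). The riser was Id3, an inhibitor of helix-loop-helix factors (22.6 and 6.24 to 46.4 and 36.1 FPKM, log2 difference 1.68, limma adjusted p = 0.0225), and the faller Fst, the activin antagonist follistatin (51.3 and 45.5 to 25.2 and 22 FPKM, log2 difference -1.005, adjusted p = 0.000488). Of 13 primitive endoderm genes Sox17 and Lama1 rose (15.4%, log2 differences 1.12 and 1.35). That list had 6 positive and 7 negative differences, with a median of -0.11. Neurog2 was among the risers of the 21 neural patterning factors (9.52%, median 0.05). In the list of integrated stress and serine genes (24 tested) Ddit4, an inhibitor of mTORC1, rose (log2 difference 1.49) and Aldh1l2 fell. Gsta4, a glutathione transferase, was the riser of 21 oxidative stress genes (1.68), Epop, a Polycomb-associated protein, that of 24 DNA methylation and Polycomb genes (2.04), and Lef1 that of 14 primed pluripotency genes. Among 14 surface markers Epcam and Ly6a rose (14.3%, log2 differences 1.35 and 1.13), and the median was 0.26. Without D3 replicate 2 the calls of Id3, Ddit4, Aldh1l2, Gsta4, Epop, Lef1, Epcam and Ly6a were lost, and those of Fst, Sox17 and Lama1 stayed. Fst and Lef1 lost theirs without D3 replicate 1, and that of Neurog2 was lost whichever fusion library was left out. Without D5 replicate 1 Id3, Gsta4, Epcam and Ly6a lost their calls, and without D5 replicate 2 Id3, Fst, Ddit4, Aldh1l2, Epop, Lef1 and Epcam did. Of the lists with 0 calls, p53 had 2 risers without D3 replicate 1, TGF-beta and endothelial genes 1 each, and FGF 1 faller.

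The called genes were also set against the MEF and mES references. Of the 202 risers 59 (29.2%) had an mES level 2-fold or more above that of MEF, against 22.3% of all tested genes, and 24 (11.9%) were lower, against 15.2%. In 85 of them (42.1%) both references were under 1 FPKM, against 14.9% of all tested genes. Their D5 mean lay above mES in 153 (75.7%, against 52.6%). The choice of genes that are lower at D3 and higher at D5 bears on these shares. The median D3 level of the risers was 1.58 FPKM, against 5.74 over all tested genes. Of the 24 fallers 20 (83.3%) were under 1 FPKM in mES, against 25.9% of all tested genes. In 13 of them (54.2%, against 15.2%) mES was 2-fold or more below MEF, and in 2 (8.33%, against 22.3%) above. The mES reference is 1 library and has no replicate check.

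**Figure D3:**
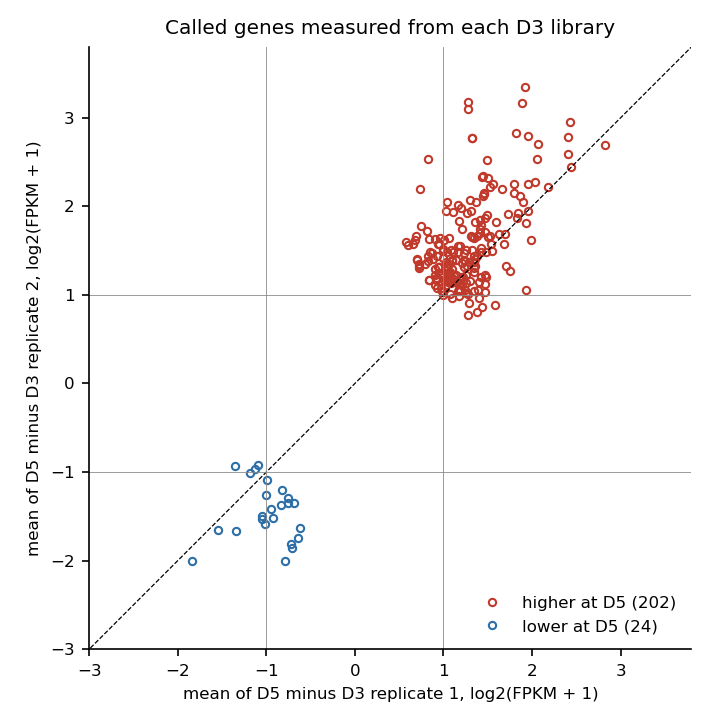
Log2 change from each D3 replicate to the mean of D5 for the called genes (x axis, from D3 replicate 1; y axis, from D3 replicate 2), in log2(FPKM + 1), with the line of equal change and lines at 2-fold. The median of the 202 risers is 1.23 counted from replicate 1 and 1.46 from replicate 2, and that of the 24 fallers is -0.97 and -1.46.

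Both D3 libraries gave the same direction for every called gene, but replicate 2 gave the larger change for most, as the plot of the change from each D3 library shows. D3 replicate 1 already lay on the D5 side of replicate 2 in 155 of 202 risers (76.7%, against 52.9% of tested genes) and in 20 of 24 fallers (83.3%, against 43.7%). Counted from each D3 library on its own, 149 risers and 8 fallers were at least 2-fold changed from both. Median transcript GC content was 53.7% in the risers and 45.4% in the fallers, against 49.9% over all. With each library's trend over GC and length removed, 211 genes were called (192 higher and 19 lower), of which 186 were among the 226.

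The native combination had fewer calls over the same days. In Nanog+Oct4, 63 genes passed between D3 and D5 (0.374%), with 57 higher (0.338%) and 6 lower (0.0356%). The overlap was 18 risers, which is 8.91% of the 202 and 31.6% of the 57, and 0 fallers. Qprt, Col23a1, H2-D1, H2-Q7, the oxytocin receptor Oxtr and the lysophospholipase Enpp2 were among the shared genes. H2-D1 rose by a log2 difference of 1.40 in the native cells (limma adjusted p = 0.00243), and 4 of 19 MHC class I genes were called there. Of the 202 fusion risers 163 had the same sign in the native cells, with a median of 0.34 against 1.30, and of the 24 fallers 20 had the same sign, with medians of -0.35 and -1.16. Over all tested genes 51.9% had a positive native difference and 45.7% a negative one. The genes were chosen for their fusion change, which fixes the larger median, and the reverse held for the 57 native risers, of which 50 had the same sign with the fusion, with medians of 1.25 in native cells and 0.82 with the fusion.

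The difference between the combinations in their D3 to D5 change was tested directly. It passed in 45 genes (0.267%), 39 with the larger rise in the fusion cells (0.232%) and 6 the other way (0.0356%). Of the 39, 35 were among the fusion risers, and 0 of the 24 fusion fallers passed. Without D3 replicate 1 of the fusion the count was 106, and without any other of the 8 libraries it was 6 to 23. Nkx1-2 was listed at 0 in all 4 native libraries of D3 and D5, so its difference equalled its own rise (log2 2.50, SE 0.33, adjusted p = 0.00157 by limma). Grik3 stood at 0.209 and 0.0616 FPKM and then at 0.503 and 0.953 in native cells, a difference of 1.99 between the changes (SE 0.26, adjusted p = 0.00157).

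Mgarp, a mitochondrial membrane protein, went from 4.50 and 2.40 to 11.2 and 19.5 FPKM with the fusion, while the native cells held 7.80 and 7.87 and then 4.63 and 8.02 (difference 2.18, SE 0.43, limma adjusted p = 0.0353). Stra6, a receptor for retinol uptake, went from 1.46 and 0.388 to 5.44 and 6.51 FPKM with the fusion and from 0.711 and 0.542 to 0.562 and 0.607 without it (difference 1.95, SE 0.36, adjusted p = 0.0239). In neither gene did the native pairs move apart in the way the fusion pairs did. Clu (1.66, adjusted p = 0.0389), Aqp8 (1.68, adjusted p = 0.0304), Wnt6 (1.79, adjusted p = 0.0309) and Meox1 (1.20, adjusted p = 0.0209) also passed. The test of the difference did not pass for Sall4 (1.09, adjusted p = 0.483), Tdgf1 (1.48, adjusted p = 0.319) or Lin28a (1.85, adjusted p = 0.0636), which says nothing on whether they changed alike.

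**Figure D4:**
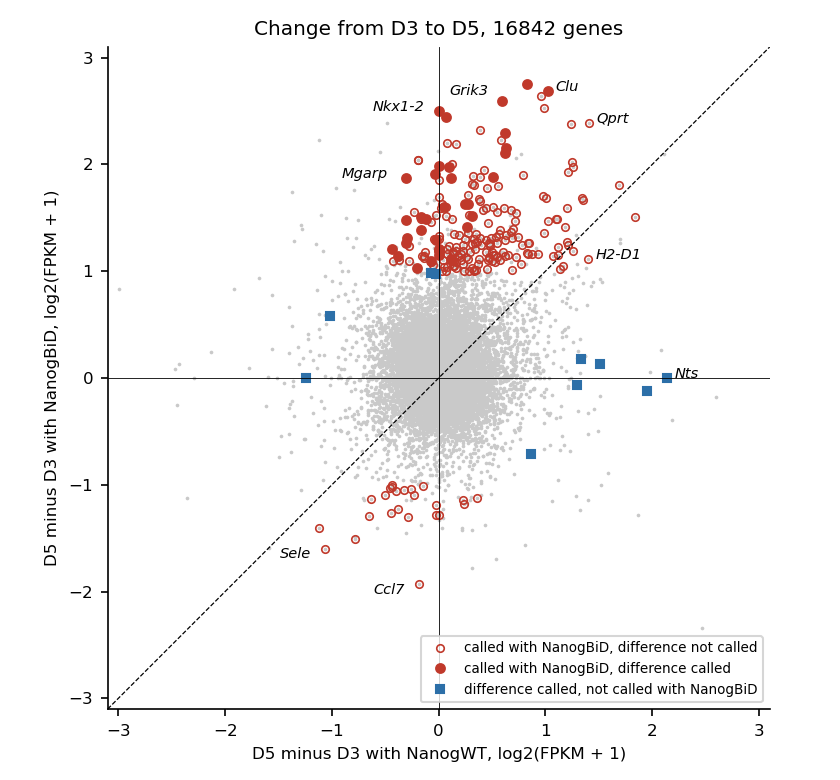
Log2 difference from D3 to D5 in Nanog+Oct4 (x axis) and in NanogN70+Oct4 (y axis) for the tested genes, in log2(FPKM + 1), with fusion calls as circles, filled where the combinations differed, and squares for genes called in that difference alone. Nkx1-2 lies high on the fusion axis (2.50) and at 0 on the native axis.

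Among 3 fallers, the fusion cells started near the native level for Ccl7 and far from it for Sele and Il33. Ccl7 stood at 12.9 and 14.1 FPKM in native cells at D5, from 16.4 and 14.7 at D3 (limma adjusted p = 0.993), and the difference between the changes was -1.74 (adjusted p = 0.197). Sele stood at 114 and 69.0 FPKM in native cells at D3 and at 50.9 and 34.3 at D5, far above the fusion cells at both days. Il33 was higher in the fusion cells, where native cells held 2.31 and 1.66 and then 2.44 and 2.54 FPKM, and its difference of -1.42 missed the threshold (adjusted p = 0.0542). Interferon-stimulated genes had a median of 0.32 in the native cells with 1 call, against -0.37 with the fusion, and that difference between the lists was not tested.

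The neighbouring intervals share libraries with this one, so their values are given side by side only. Of the 202 risers 75 had also risen from D1 to D3 (569 of all tested genes, 3.38%) and 1 had fallen (293, 1.74%). From D5 to D7, 38 rose further (349, 2.07%) and 4 fell (86, 0.511%). Their median log2 differences were 0.64, 1.30 and 0.22 in the 3 intervals, and those of the 24 fallers were 0.01, -1.16 and -0.26. Clu went by 3.92, 2.69 and -0.08, Qprt by 3.53, 2.39 and -0.61 and Aqp8 by 2.81, 2.30 and -0.49, so their rise came before D5. Nkx1-2 went by 0.09, 2.50 and 2.61, Lin28a by 0.08, 1.85 and 2.92, Gbx2 by 0.02, 2.199 and 2.33 and Cdx1 by 0.23, 1.99 and 2.84, so these were near their D1 level at D3 and rose over both later intervals.

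**Figure D5:**
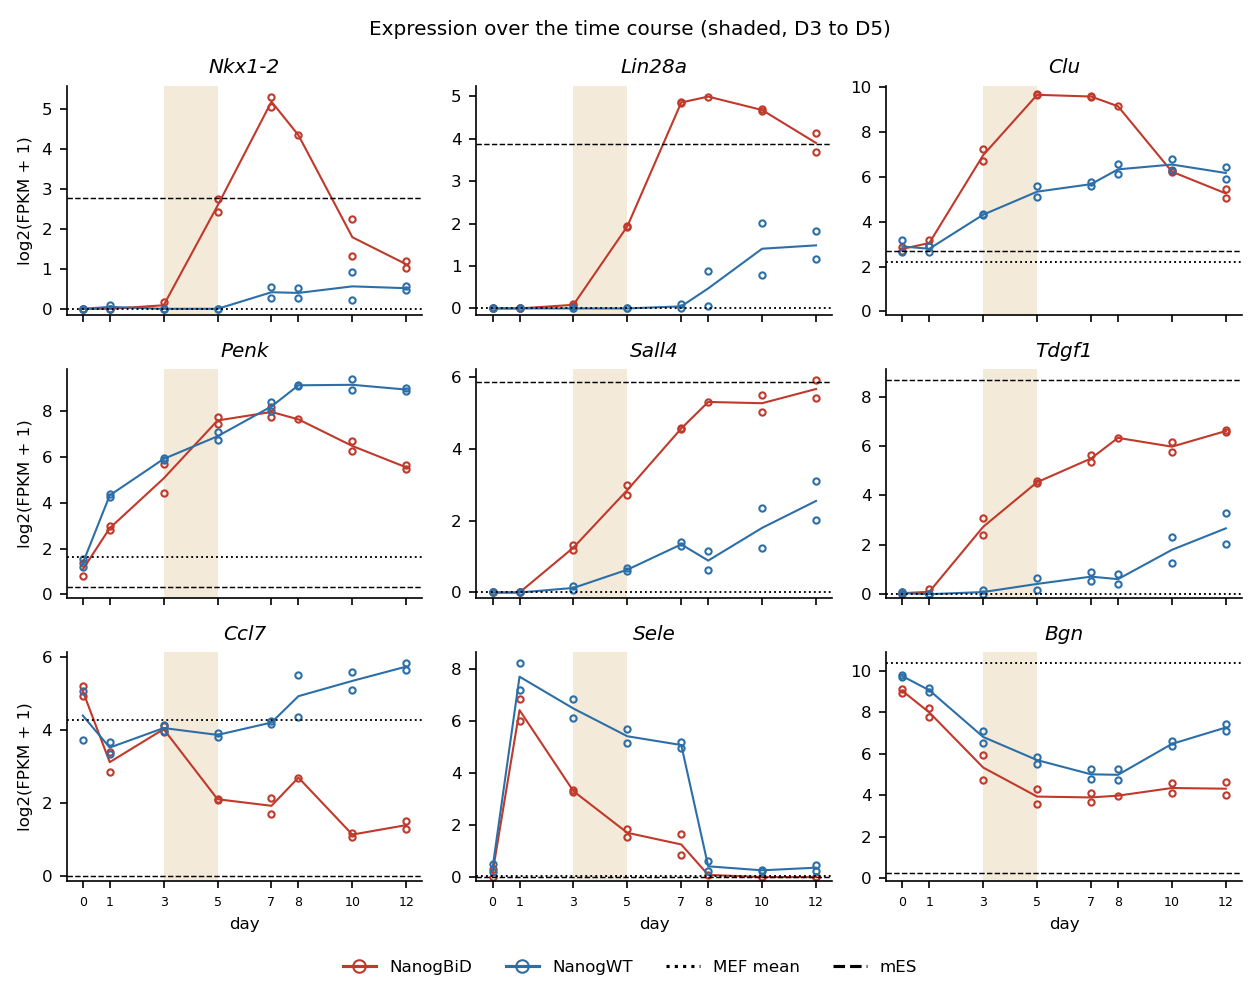
Level by day (y axis, log2(FPKM + 1)) of 9 genes in NanogN70+Oct4 (red) and Nanog+Oct4 (blue), with points for single libraries, lines through the means, the D3 to D5 interval shaded, and MEF and mES as horizontal lines; at D8 the fusion has 1 library. Clu levels off after D5 (807 and 766 FPKM at D5 and D7), while Nkx1-2 goes on from 5.04 to 35.7 FPKM and is 1.17 at D12.

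Nkx1-2 and Meox1 did not stay at their peak. Nkx1-2 had mean levels of 35.7 FPKM at D7, 2.65 at D10 and 1.17 at D12, and Meox1 15.1, 1.52 and 0.175. Sall4 behaved otherwise, with means of 22.6, 38.0 and 50.4 FPKM, and so did Tdgf1, with 44.3, 62.3 and 96.3. In the native cells Sall4 had a mean of 5.26 FPKM and Tdgf1 of 5.93 at D12. Sele had its highest mean at D1 in both combinations, at 88.9 FPKM with the fusion and 223 with native Nanog, and was at 8.90 and 91.5 at D3.

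Promoter motifs were counted in 15162 upstream windows of 11953 tested genes, of which 164 belong to 128 risers and 17 to 13 fallers. The octamer ATGCAAAT, a site that POU factors such as OCT4 bind, was in 1.41% of all windows, in 8 windows of risers (4.88%) and in 1 of fallers (5.88%). The risers with an octamer were Elf3, Rgs4, Sfrp2, Clca3a2, Kcnab2, Evx1, Chchd10 and Egln3, with log2 differences from 1.11 to 1.53, and the faller was Il33. The shares for a SOX core (ACAATG) were 6.36% of all, 5.49% of risers and 11.8% of fallers, and for a TCF/LEF core (CTTTGAT) 2.33%, 1.83% and 0%. AP-1 (TGANTCA) was in 4.64%, 6.71% and 11.8%, a GC box (GGGCGG) in 54.9%, 47.6% and 29.4%, a CCAAT box in 35.4%, 24.4% and 29.4%, and a TATA box (TATAAA) in 7.06%, 7.32% and 35.3%. Of the 17 faller windows the TATA box was in 6, the GC and CCAAT boxes in 5 each, and SOX and AP-1 in 2 each. The windows held a median of 14 CG dinucleotides over all, 9 in risers and 7 in fallers. The part of base composition in these shares was not tested. Each motif was searched on both strands, and a match is a string of letters and no sign of binding. Evx1, a homeobox gene of the posterior embryo named here for its motif, was listed at 0 in both D3 libraries and stood at 1.35 and 1.09 FPKM at D5 (log2 difference 1.15, limma adjusted p = 7.69e-05).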

How the data were processed

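RNA from the 4 NanogN70+Oct4 libraries of D3 and D5 was measured beside 27 further libraries of the time course, 2 of MEF and 1 of mES. According to the study's methods, the authors trimmed reads with Trim Galore 0.6.4, aligned them to mm10 with HISAT2 2.2.1 and quantified genes with StringTie 2.2.1. The values the authors deposited are FPKM per gene and library (37108 genes). The annotation and the use of strand are not given in the sources used here, so overlapping genes are uncertain. The authors' GFOLD calls need mapped reads and were not used, nor was the transcript table of the iPSC. FPKM scale each library to its own total, so a few very abundant genes lower all others, and rescaling to a common total (TPM) and quantile normalization were tried for that reason. FPKM are not counts, and depth is known only as ratios between libraries, so no counting interval is given.

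The 16842 genes that reached 1 FPKM in 2 or more libraries of the time course were tested with limma 3.58.1 in R 4.3.3 on log2(FPKM + 1), with 1 mean for each of 16 groups, an intensity trend and a shared spread (15 residual and 4.09 prior degrees of freedom). Tests were two-sided and p-values adjusted by Benjamini-Hochberg over all tested genes. A gene was called at an adjusted p under 0.05 and a 2-fold change. The labels do not say that replicates were separate cultures, so p-values measure only the spread between libraries of the same group. That spread is shared over the 16 groups and may be smaller than that between the D3 replicates of the fusion. Named genes were the 12 largest changes each way among called genes with non-overlapping groups and a mean of at least 5 FPKM in the higher group, the 5 largest each way for the difference between combinations, and called members of 33 gene lists (717 genes), without unnamed gene models and small RNA genes, and 1 gene the rule picked is not reported here. For the difference between combinations no gene met the rule in the lower direction. Members and lists were chosen with earlier results of these data known. On simulated data for this comparison (16842 genes), limma recovered 94 of 100 genes changed by 1.5 on the log2 scale and 95 of 100 changed by 2, with 6 others called. The changed genes were drawn from those with a mean log2(FPKM + 1) above 2, and the simulated noise was independent between libraries. Recovery of low genes was therefore not simulated, nor was the GC-linked difference between the D3 replicates.

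Alternatives were a pseudocount of 0.1, no filter, TPM, quantile normalization, a replicate block, the compared groups alone, no intensity trend, no fold limit and each library left out. Removal of each library's trend over GC content and length (splines with 5 degrees of freedom) and a fit without the Nanog+Oct4 libraries of D8 to D12 were chosen after seeing the data. Gene positions and promoters are from RefSeq tables of GRCm38.p6, which is the assembly of mm10. Replicate numbers are shared by the groups. The deviations of same-numbered libraries correlated at 0.178 between D3 and D5 of the fusion, at 0.153 between those of the native combination and at -0.065 (D3) and -0.043 (D5) between combinations, so the numbers were not taken to pair the libraries. Python 3.11.15 with numpy 2.4.6, pandas 2.3.3 and matplotlib 3.10.9 was used for the other steps.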

Additional observations from a re-analysis of the deposited data

Results flagged for a closer look

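The change from D3 to D5 differed between the NanogN70+Oct4 and Nanog+Oct4 combinations in 45 genes by the limma test of that difference (adjusted p under 0.05 and a 2-fold difference between the changes). Among the genes named by the rule, the fusion change exceeded the native change by a log2 difference of 2.50 in Nkx1-2, 2.18 in Mgarp, 1.99 in Grik3 and 1.95 in Stra6. The difference for Nkx1-2 lost its call under no alternative run. Grik3 lost it under a pseudocount of 0.1 and in a fit to the compared groups alone. Mgarp and Stra6 lost it in 8 and 10 of the alternatives, most of which leave out a library.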

How the results depend on the processing

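For the fusion, 226 genes were called. The count was 374 as TPM, 0 in a fit to its 4 libraries alone (1642 at an unadjusted p under 0.05), 438 with no fold limit and 117 to 370 with a library of its own left out. It was 138 without D3 replicate 2, 117 without D5 replicate 2 and 370 without D3 replicate 1, and 110, 108 and 199 of the 226 were among these calls. With a replicate block it was 240, all 226 among them. For native Nanog, 63 were called. The count was 32 with a pseudocount of 0.1, 0 in the fit to its own libraries (1486 unadjusted), 107 with no fold limit, 26 to 55 with a library of its own left out, 58 to 75 with a fusion library left out and 73 with a replicate block. It was 26 without D3 replicate 2 and 34 without D5 replicate 2. For the difference between combinations (45) the count was 5 with a pseudocount of 0.1, 27 as TPM, 24 after quantile normalization, 8 in the fit to the compared groups, 17 with GC and length trends removed, 51 with a replicate block, and 6 to 106 with a library left out. After quantile normalization 18 of the 24 were higher (75%, against 86.7%). The replicate block ended no call of a named gene. The cause of these shifts was not tested. The median log2 difference of all genes was 0.051, and 0.111 as TPM and -0.016 after quantile normalization. Pou5f1, not called, turned sign to 0.012 as TPM, 0.204 after quantile normalization and 0.241 without D3 replicate 1 (-0.367 to 0.241 with a library left out), and Ss18, not called, to 0.012 with GC and length trends removed and 0.010 without D3 replicate 1 (-0.211 to 0.010). Of the fusion results for single genes, 532 kept direction and side of the threshold, 178 lost the call and 5 turned sign. The named risers Clu, Pcsk1n, Grik3, Penk, Nkx1-2, Qprt, Col23a1 and Aqp8 lost it in the fit to the 4 libraries alone and nowhere else.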

Other observations

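Several called genes that the rule did not name were chosen here after their values were seen. Trh, the precursor of thyrotropin-releasing hormone, went from 0.0895 and 0.0842 FPKM at D3 to 4.38 and 5.53 at D5 (log2 difference 2.45, limma adjusted p = 7.54e-05), and mES held 52.4. Pnoc, the nociceptin precursor, went from 0.246 and 0.129 to 3.96 and 3.38 FPKM (log2 difference 1.98, adjusted p = 3.24e-06), and it is listed at 0 in both MEF libraries and in mES. Both were under 0.13 FPKM in all native libraries of D3 and D5. Npy, the neuropeptide Y precursor, went from 94.7 and 51.8 to 223 and 204 FPKM (log2 difference 1.59, adjusted p = 0.0189), and native cells held 38.4 and 52.5 at D5.

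Hoxb1, a homeobox gene of the hindbrain and posterior mesoderm, went from 0.0849 and 0.0266 to 1.39 and 1.95 FPKM (log2 difference 1.33, limma adjusted p = 0.0025). Wnt8a, a ligand of the early embryo, went from 0.326 and 0 to 2.40 and 3.08 FPKM (log2 difference 1.69, adjusted p = 0.0016). Cyp26a1, which degrades retinoic acid, went from 0.200 and 0.126 to 1.53 and 1.67 FPKM (log2 difference 1.16, adjusted p = 0.00685). Hoxb1 and Wnt8a are listed at 0 in all 4 native libraries of D3 and D5. Adm, the peptide adrenomedullin, went from 0.583 and 0.338 to 2.47 and 3.18 FPKM (log2 difference 1.39, adjusted p = 0.000817), while MEF held 17.4 and 14.5.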
